A study of Mus musculus with 6 samples.

Results

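The S100 genes encode small calcium-binding proteins, and 10 of them were examined here of the 25526 genes listed in each table: S100a1, S100a3, S100a4, S100a6, S100a8, S100a10, S100a11, S100a13, S100a14 and S100a16. They were chosen by name as members of the family, and all 10 were found. RNA-seq libraries came from MOC2, an oral carcinoma cell line of the mouse: 3 from the parental line, with wild-type p62, and 3 from cells in which p62 had been knocked out by CRISPR-Cas9. p62 is the autophagy receptor encoded by Sqstm1. Both groups grew in DMEM with fetal bovine serum, without further treatment. The series states 3 biological replicates per group, with libraries made in parallel. The labels do not say how many clones the knockout libraries stand for or what separates the replicates of a group. A p-value here therefore reflects the spread between libraries, part of which may be technical.

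An S100 protein carries a pair of EF-hand motifs, the helix-loop-helix fold that holds a calcium ion, and usually works as a dimer. Calcium binding exposes a hydrophobic face that grips target proteins, among them annexins, the non-muscle myosin heavy chain and ubiquitin ligase adaptors. Some members also leave the cell and bind receptors such as RAGE and TLR4. In stratified epithelium the genes lie in and beside the epidermal differentiation complex, and several are known for altered levels in squamous carcinoma.

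All 10 members lie on mouse chromosome 3, in 2 clusters. In RefSeq order, 8 members follow each other as S100a1, S100a13, S100a14, S100a16, S100a3, S100a4, S100a6 and S100a8, and S100a11 and S100a10 form the second cluster. S100a1 lies on the minus strand and the other 9 on the plus strand. RefSeq promoter windows (250 bases before to 50 after a start, build GRCm38.p6) were available for 8 members, in 12 windows. S100a10 and S100a14 had none. The 4 windows printed here each hold a motif match and belong to genes whose levels were higher in the knockout libraries, or in 2 of them, as given further on. S100a6 and S100a13 were also higher in 2 knockout libraries, but their windows held no match and are not printed. Further windows of S100a3 and S100a16 are not printed either. Capitals mark matches to the motifs searched, and the letters run 5′ to 3′ on the strand of the gene.
S100a11, chr3:93520246-93520545, plus strand: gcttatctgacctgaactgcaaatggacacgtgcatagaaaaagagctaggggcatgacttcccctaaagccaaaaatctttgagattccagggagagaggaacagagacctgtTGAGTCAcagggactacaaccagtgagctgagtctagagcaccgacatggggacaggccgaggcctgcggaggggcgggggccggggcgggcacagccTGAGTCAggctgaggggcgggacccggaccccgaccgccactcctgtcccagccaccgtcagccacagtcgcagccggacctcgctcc
S100a4, chr3:90603520-90603819, plus strand: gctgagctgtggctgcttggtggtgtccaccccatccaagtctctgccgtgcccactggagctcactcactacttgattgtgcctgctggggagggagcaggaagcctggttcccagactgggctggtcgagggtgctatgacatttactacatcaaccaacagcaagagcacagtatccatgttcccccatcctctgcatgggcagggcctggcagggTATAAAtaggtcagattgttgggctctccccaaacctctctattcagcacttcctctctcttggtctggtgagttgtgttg
S100a3, chr3:90586702-90587001, plus strand: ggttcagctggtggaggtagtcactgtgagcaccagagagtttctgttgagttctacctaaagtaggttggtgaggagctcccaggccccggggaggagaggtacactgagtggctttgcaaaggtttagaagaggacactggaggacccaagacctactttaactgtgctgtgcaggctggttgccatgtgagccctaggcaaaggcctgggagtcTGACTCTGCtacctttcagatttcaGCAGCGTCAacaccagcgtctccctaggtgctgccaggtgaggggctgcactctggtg
S100a16, chr3:90537004-90537303, plus strand: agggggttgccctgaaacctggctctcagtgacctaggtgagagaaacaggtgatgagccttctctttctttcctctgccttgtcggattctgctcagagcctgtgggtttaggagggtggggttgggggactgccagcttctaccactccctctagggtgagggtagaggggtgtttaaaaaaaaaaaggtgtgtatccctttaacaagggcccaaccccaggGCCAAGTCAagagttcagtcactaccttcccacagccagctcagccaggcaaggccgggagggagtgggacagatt

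Of 6 motifs searched on both strands, the window of S100a11 held 2 matches to the AP-1 motif TGANTCA, both spelled TGAGTCA, which start 136 and 38 bases before the gene start. This motif was in 7.81% of all 32851 promoter windows and in 2 of the 12 member windows, the other being a window of S100a16 that is not shown. The antioxidant response element TGACNNNGC, the site bound by NRF2, was in 2 of the 12 member windows, against 12.4% of all windows. The S100a3 window shown held 2 matches and that of S100a16 held 1. TATAAA was in 3 of the 12 windows, of S100a4, S100a8 and a window of S100a3 that is not shown, against 13.6% of all windows. In S100a4 it starts 31 bases before the gene start. Neither the interferon-stimulated response element (3.44% of all windows) nor the gamma-activated site TTCNNNGAA (8.3%) was found in these windows. TEAD sites, GGAATG, were in 14.7% of all windows and in 1 of the 12, of S100a3. The windows of S100a1 and S100a13 face each other and share 204 bases. A match describes letters in a window and shows no binding.

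Libraries held between 32821860 and 41763980 exon reads. Sqstm1 stood at 1567, 1783 and 2103 CPM (read counts scaled to a common library size with TMM factors) in parental replicates 1 to 3, and at 117, 589 and 125 CPM in knockout replicates 1 to 3. The library labelled knockout replicate 2 thus kept the most Sqstm1 reads of the knockout group (log2 fold change of Sqstm1 -2.71 ± 0.65 with all libraries, edgeR adjusted p = 0.048, and -3.93 ± 0.18 without this library). Leaving out any other library ended the Sqstm1 call (edgeR adjusted p = 0.0959 to 0.178), with log2 fold changes of -2.80 to -2.32. Knockout replicate 2 also stood apart over all tested genes, with a Pearson correlation of log2 CPM across genes of 0.951 with either of the other knockout libraries, against 0.995 between those 2. With each parental library it correlated more closely, at 0.972, 0.963 and 0.953 for replicates 1 to 3. Calls made with and without it are therefore set side by side. All 6 simple epithelial markers had a mean of 1 CPM or more (summed 6192 to 7286 CPM in parental and 5683 to 9167 CPM in knockout libraries), while the squamous markers Krt5 and Trp63 were at 0.261 CPM or less on average in both groups. Of the 6 simple epithelial markers only Krt8, a simple keratin, was called, rising 2.53-fold (edgeR adjusted p = 0.0471), where 3.48% of all genes were called higher. Log2 fold changes were positive for 4 of them, Krt8 included, and were -0.16 for Krt7 and -0.07 for Cdh1. The Krt8 call was lost by limma-voom, with a filter of 5 CPM in 3 libraries, with the replicate number as a block, and without any library but knockout replicate 2. Of the 7 squamous markers, 3 had a mean of 1 CPM or more, led by Krt17, with list sums of 109 to 127 CPM in parental and 97.95 to 227 CPM in knockout libraries. Without knockout replicate 2, 4 of 6 simple epithelial markers and 4 of 5 tested squamous markers were called higher and 0 lower. Of all genes in that fit, 23% were called higher and 23.2% lower. The part of these markers in the S100 values was not tested. Endothelial, lymphocyte and Schwann cell lists summed to at most 1.29 CPM in any library.

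Levels per length, as deposited TPM (transcript share after division by exon length), set S100a6 and S100a11 far above the rest. S100a6, calcyclin, binds the ubiquitin ligase adaptor encoded by Cacybp and stood at 1237, 1584 and 1576 TPM in parental replicates 1 to 3 and at 2077, 1264 and 2143 TPM in knockout replicates 1 to 3. S100a11, a partner of annexin A1, stood at 842, 1165 and 1952 TPM and at 3418, 1754 and 3108 TPM in the same order. In the parental group the 2 means, 1466 ± 198 and 1320.02 ± 571 TPM (SD, n = 3), did not differ beyond their spread. S100a11 was below S100a6 in parental replicates 1 and 2 and above it in the other 4 libraries, with ratios of 0.681, 0.735, 1.24, 1.65, 1.39 and 1.45.

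S100a10 followed with 460.3 ± 108 TPM in parental and 984 ± 344 TPM in knockout cells, and S100a14 with 326 ± 95.2 and 159 ± 20.4 TPM. Their parental levels overlapped, and parental replicate 2 held more S100a14 (435 TPM) than S100a10 (408 TPM). S100a16 had 95.3 ± 12.2 TPM in parental and 151 ± 73.6 TPM in knockout cells. S100a1, S100a13 and S100a4 had parental means of 34.4, 18.1 and 11.2 TPM, with overlapping ranges between S100a13 and S100a4, and S100a3 had 5.66 TPM. S100a8 was last in every library, at 0.599 ± 0.324 TPM in parental and 0.473 ± 0.430 TPM in knockout cells. S100a6, S100a11 and S100a10 together made up 83.9% to 93.2% of the summed TPM of the 10 genes. That sum was 2861, 3763 and 4587 TPM in parental and 7153, 3871 and 6973 TPM in knockout replicates 1 to 3, so knockout replicate 2 lay within the parental range. Among all genes, S100a11 ranked between 24 and 144 by TPM over the libraries, S100a6 between 66 and 110 and S100a10 between 124 and 328. S100a14 exceeded S100a16 in TPM in every parental library, with ratios of 3.16, 4.36 and 2.71, and the ratio was 0.903, 2.05 and 0.868 in knockout replicates 1 to 3.

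**Figure D1:**
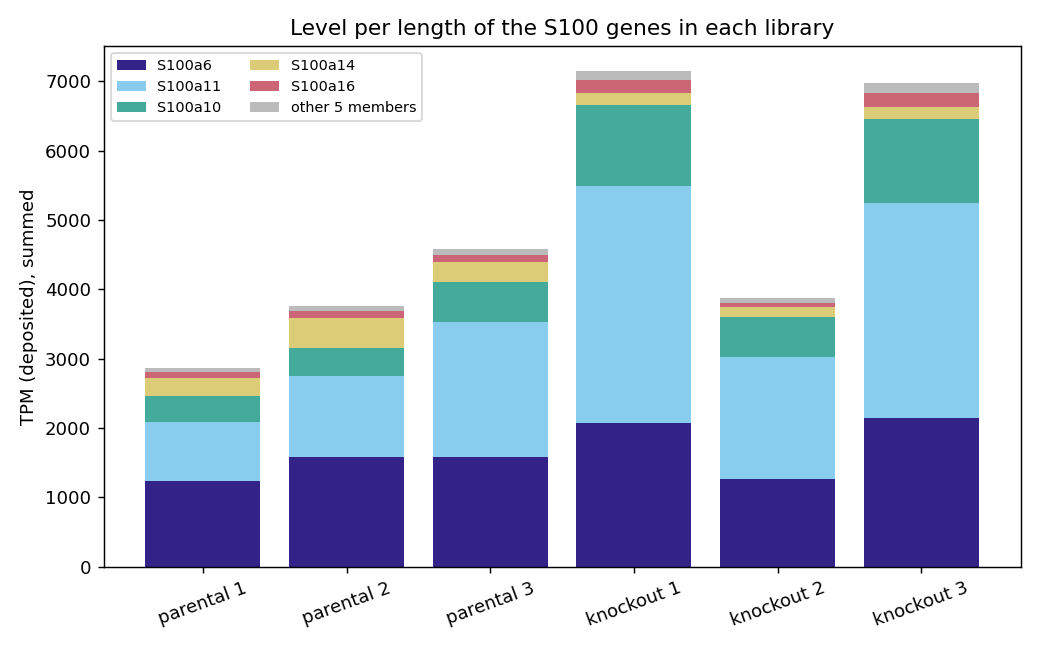
Deposited TPM of the S100 genes stacked per library (vertical axis, linear from 0; horizontal axis, the 3 parental and 3 p62 knockout libraries). Knockout replicates 1 and 3 reach 7153 and 6973 TPM, and the other 4 libraries lie between 2861 and 4587 TPM.

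The comparison of p62 knockout with parental cells asked which of these genes differ in level without p62. S100a3 rose in knockout cells and S100a14 fell, and no other member passed the test (edgeR quasi-likelihood, adjusted p below 0.05 over 12775 genes). Of the 10 members, 9 had enough reads to be tested. Thus 1 of 9 was called higher, where 3.48% of all tested genes were, and 1 of 9 lower, where 5.6% of all genes were. The median log2 fold change was 0.73 over the 9 members and 0.02 over all genes tested. Positive signs were found for 8 of the 9 members and for 6611 of the 12775 genes. Levels of several members were correlated over the libraries, so their signs are not independent. DESeq2 called 4 members higher, S100a3, S100a4, S100a10 and S100a11, and 1 lower, where it called 10.2% and 9.89% of all genes. Limma-voom called S100a3 and S100a14, as edgeR did, where 2.68% of all genes were called higher and 5.45% lower.

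S100a3 encodes a zinc- and calcium-binding protein known from the hair cuticle. It stood at 2.18, 1.79 and 2.01 CPM in parental replicates 1 to 3 and at 4.55, 3.95 and 4.60 CPM in knockout replicates 1 to 3. The groups did not overlap, and knockout replicate 2 was close to the other 2 knockout libraries. Expression rose 2.19-fold, a log2 fold change of 1.13 ± 0.22 (SE) with an edgeR adjusted p of 0.0324. The values rest on 66 to 161 reads per library. The gene shares its span with S100a2 and the predicted gene Gm42674 on the same strand, which held 8 and 85 reads over all libraries, and 98.4% of the S100a3 reads were unique. Leaving out any library other than knockout replicate 2 ended the call, with adjusted p values of 0.065 to 0.172, while the log2 fold change stayed between 1.05 and 1.19. In those 5 fits, 0 to 125 genes of the whole table were called higher.

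S100a14 encodes an epithelial member that binds calcium weakly. It stood at 109, 180.3 and 129 CPM in parental and at 74.1, 62.2 and 79.4 CPM in knockout replicates 1 to 3. Every knockout library lay below every parental library, and the 3 knockout values were close together. The fall was 1.94-fold (log2 fold change -0.95 ± 0.21, SE; edgeR adjusted p = 0.0396). Parental replicate 2 was the highest library, and without it the log2 fold change was -0.73 (adjusted p = 0.163). Leaving out parental replicate 3 (adjusted p = 0.105), knockout replicate 1 (0.142) or knockout replicate 3 (0.130) also ended the call, which held without parental replicate 1 or knockout replicate 2.

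**Figure D2:**
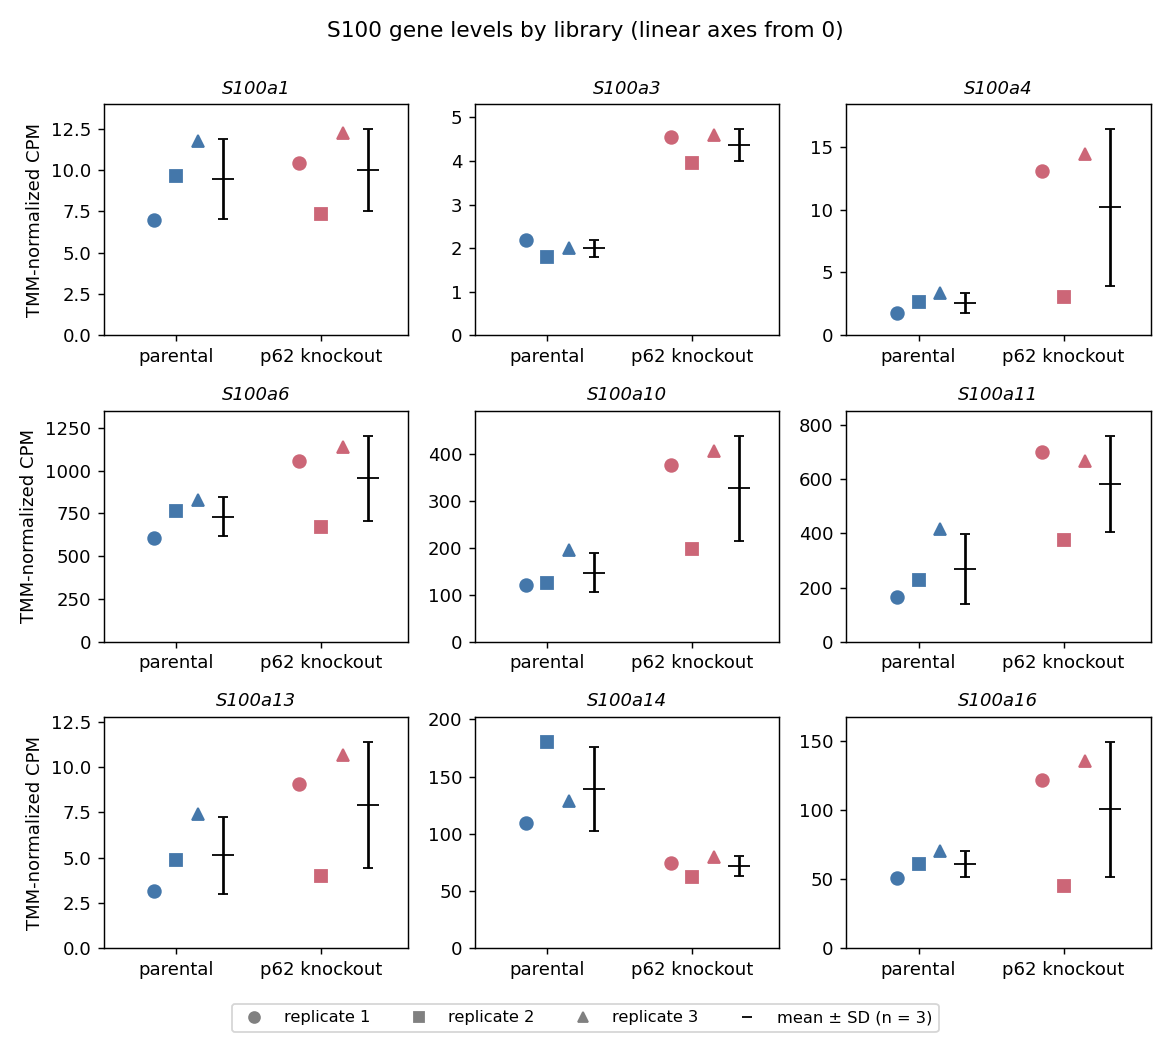
TMM-normalized CPM of the 9 tested S100 genes (vertical axes, linear from 0) in parental and p62 knockout libraries, with marker shapes for replicate numbers and bars for the mean ± SD (n = 3). S100a3 and S100a14 separate the groups with all 3 knockout libraries on one side, while knockout replicate 2 lies within or below the parental range for S100a1, S100a4, S100a6, S100a11, S100a13 and S100a16.

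S100a4, metastasin, binds the non-muscle myosin heavy chain and is a known mesenchymal and metastasis-associated gene. It stood at 1.78, 2.67 and 3.36 CPM in parental replicates 1 to 3 and at 13.1, 3.04 and 14.4 CPM in knockout replicates 1 to 3. Knockout replicates 1 and 3 were far above every parental library and knockout replicate 2 was within the parental range. The log2 fold change of 1.97 ± 0.57 (SE) did not pass (edgeR adjusted p = 0.0719). Without knockout replicate 2 it was 2.39 ± 0.27, or 5.24-fold (adjusted p = 0.00158). Of the S100a4 reads, 63.3% were unique, between 55.6% and 69.8% per library, and in GENCODE M21 the gene shares 2115 bases with Gm42674 on the same strand. With unique reads alone the log2 fold change was 1.90 (edgeR adjusted p = 0.0825). Fibroblasts also express this gene. The fibroblast list summed to 11.4 to 14.9 CPM in parental and 3.70 to 4.304 CPM in knockout libraries, with Lum at 0 in both groups and Pdgfra lower in knockout cells (edgeR adjusted p = 0.00934). Pdgfra was the 1 called of 2 tested fibroblast markers, where 5.6% of all genes were called lower. Dcn averaged 0.422 CPM in parental and 0.179 CPM in knockout cells. All libraries came from a cultured cell line, and the part of fibroblasts in the S100a4 reads was not tested. In bulk RNA, fewer cells expressing a gene and less RNA per cell cannot be told apart.

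S100a10, also called p11, does not need calcium and forms a complex with annexin A2 that binds plasminogen at the cell surface. It stood at 121, 124 and 195 CPM in parental and at 375, 198 and 406 CPM in knockout replicates 1 to 3. The groups did not overlap, but knockout replicate 2 exceeded parental replicate 3 by little. Its log2 fold change, 1.15 ± 0.31 (SE), had an edgeR adjusted p of 0.0618, and was 1.40 ± 0.22 without knockout replicate 2 (adjusted p = 0.00417). S100a11 stood at 167, 227 and 415 CPM in parental and at 702, 377 and 669 CPM in knockout replicates 1 to 3. Here knockout replicate 2 lay below parental replicate 3. The log2 fold change was 1.11 ± 0.38 (SE; adjusted p = 0.0986), and 1.33 ± 0.36 without knockout replicate 2 (adjusted p = 0.0251).

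S100a16, a widely expressed member, stood at 51.1, 61.3 and 70.4 CPM in parental and at 122, 44.9 and 136 CPM in knockout replicates 1 to 3. Knockout replicate 2 was the lowest of the 6 libraries and the other 2 knockout libraries were the highest. The log2 fold change of 0.73 ± 0.38 (adjusted p = 0.232, edgeR) became 1.06 ± 0.15 without knockout replicate 2 (adjusted p = 0.00314). S100a6 stood at 606, 762 and 828 CPM in parental and at 1056, 672 and 1141 CPM in knockout replicates 1 to 3, again with knockout replicate 2 inside the parental range. Its log2 fold change was 0.38 ± 0.24 (adjusted p = 0.292, edgeR), and 0.57 ± 0.15 without knockout replicate 2 (adjusted p = 0.0241).

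S100a13, which takes part in the export of FGF1, stood at 3.15, 4.89 and 7.39 CPM in parental and at 9.04, 3.99 and 10.7 CPM in knockout replicates 1 to 3. Its log2 fold change was 0.62 ± 0.44 (adjusted p = 0.359, edgeR), and 0.93 ± 0.35 without knockout replicate 2 (adjusted p = 0.0686). S100a1, known for calcium handling in heart muscle, overlapped fully between groups, at 6.96, 9.65 and 11.8 CPM in parental and 10.4, 7.35 and 12.2 CPM in knockout replicates 1 to 3. Its log2 fold change was 0.08 ± 0.28 (adjusted p = 0.854, edgeR). The 2 genes lie head to head and share 98 bases in RefSeq, and although the library kit was directional, the strand setting of the counting is not known, so reads in that stretch cannot be assigned with certainty.

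S100a8 forms calprotectin with S100a9 in neutrophils. It had 7, 2 and 4 reads in parental and 2, 8 and 1 reads in knockout replicates 1 to 3, too few for the test. A count of 0 allows up to 3 reads, or 0.0718 to 0.0914 CPM per library, so most of these values are near that limit. S100a9 had reads in parental replicate 2 alone, at 0.0504 CPM. Of the 9 myeloid markers, 6 had a read in the parental and 6 in the knockout group, Ptprc was at 0.0249 CPM in parental and 0.155 CPM in knockout cells, and Itgam, Lyz2 and Elane were at 0 in the parental group. The summed myeloid list was 35.7 to 70.4 CPM in parental and 10.3 to 18.4 CPM in knockout libraries, with Ly6g the most abundant. Ly6g averaged 33.9 CPM in parental and 9.22 CPM in knockout cells (edgeR adjusted p = 0.0589). Csf1r went the other way, from 1.91 to 2.66 CPM (adjusted p = 0.549, edgeR). Itgam and Lyz2 had reads in every knockout library, averaging 0.0466 and 0.0562 CPM, below the depth limit. Cd68, a lysosomal protein of macrophages, fell 5.67-fold, with 19.8 ± 2.08 CPM in parental and 3.48 ± 0.774 CPM in knockout cells (edgeR adjusted p = 0.00654). Of 3 myeloid markers tested, Cd68 was the 1 called, where 5.6% of all genes were called lower. The part of such cells in the S100a8 reads was not tested.

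With knockout replicate 2 left out, S100a3, S100a4, S100a6, S100a10, S100a11 and S100a16 were higher and S100a14 lower. These are 6 and 1 of 9 members, where 23% of 12942 genes were called higher and 23.2% lower. The share of calls among all genes was thus itself several times that with all 6 libraries. Over the 9 members, knockout replicates 1 and 3 were both above every parental library for 7, against 35.9% of all tested genes. For 5 of these, knockout replicate 2 was not above every parental library, against 18.7% of all genes. The full groups did not overlap for 2 members higher (17.2% of all genes) and 1 lower (19% of all genes). The part that the residual Sqstm1 reads or the different transcriptome of knockout replicate 2 had in these values was not tested.

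**Figure D3:**
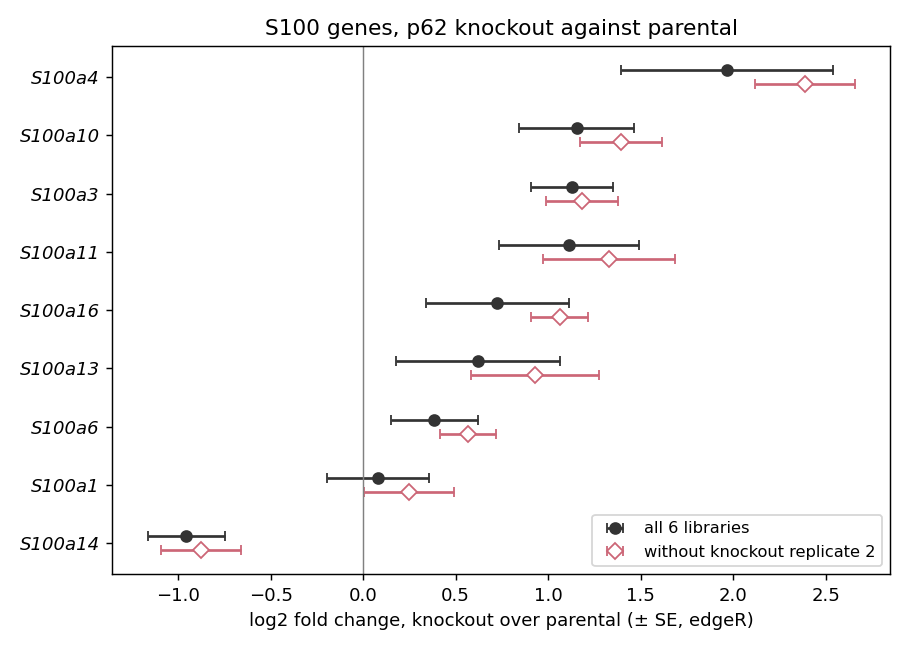
Log2 fold change of knockout over parental cells (horizontal axis, ± SE, edgeR) for the 9 tested S100 genes, with all 6 libraries (filled circles) and without knockout replicate 2 (open diamonds). S100a3 moves from 1.13 to 1.18 and S100a14 from -0.95 to -0.88 when the library is left out, and S100a4 from 1.97 to 2.39.

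S100a4 had the largest positive and S100a14 the largest negative log2 fold change among tested members, and the genes with the most similar profile over the 6 libraries were sought for both. Of 10242 genes compared, all with a mean of 5 CPM or more, Nup107, a nuclear pore subunit, Klhdc4 and Pbdc1 had the highest Pearson correlation of log2 CPM with S100a4 (r = 0.9996, 0.9996 and 0.9991). In all, 98 genes exceeded 0.99. For S100a14, Ano9, a member of the anoctamin family, Tmem102 and Mical3, a monooxygenase of the MICAL family, were the closest (r = 0.997, 0.994 and 0.992), and 4 genes in all exceeded 0.99. None of these 6 genes passed the edgeR test (adjusted p from 0.0791 to 0.143). With only 6 libraries in 2 groups, these values describe profiles.

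Annexins bind membranes in the presence of calcium and are the best-known S100 partners. Of 12 annexin genes, 10 were tested, 1 was lower, 0 were higher and 9 did not pass by edgeR, where 5.6% of all genes were lower and 3.48% higher. At an unadjusted p below 0.05 (edgeR), 2 were higher and 1 lower. No share of all genes was computed at that unadjusted threshold, so counts at it, here and for the lists below, are descriptions only. DESeq2 called 2 annexins higher and 1 lower, where it called 10.2% and 9.89% of all genes. Without knockout replicate 2, Anxa1, Anxa2, Anxa4, Anxa5 and Anxa9 were higher and Anxa11 lower, which is 5 and 1 of 10, where 23% and 23.2% of all genes were. Anxa11 fell 1.49-fold, with 236 ± 24.0 CPM in parental and 158 ± 6.00 CPM in knockout cells (edgeR adjusted p = 0.0383). Leaving out any library but knockout replicate 2 ended this call (adjusted p = 0.0532 to 0.194), with log2 fold changes of -0.66 to -0.53. The median log2 fold change of the list was 0.23. Anxa2, the partner of S100A10, stood at 516, 590.3 and 846 TPM in parental and at 1709, 759 and 1597 TPM in knockout replicates 1 to 3. In CPM its log2 fold change was 1.11 ± 0.35 (edgeR adjusted p = 0.0817), and 1.38 ± 0.24 without knockout replicate 2 (adjusted p = 0.00592).

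The ratio of Anxa2 to S100a10 in TPM stayed between 1.29 and 1.47 in all 6 libraries, while S100a10 itself ranged from 389 to 1202 TPM. Anxa1 and S100a11 did not keep such a ratio. Their TPM ratio was 1.25, 1.71 and 1.19 in parental and 1.04, 0.573 and 1.11 in knockout replicates 1 to 3, lowest in knockout replicate 2. Cacybp, the S100A6-binding adaptor, stood at 144, 117 and 122.9 TPM in parental and at 221, 143 and 224 TPM in knockout replicates 1 to 3 (log2 fold change in CPM 0.68 ± 0.20; edgeR adjusted p = 0.0699), and without knockout replicate 2 this was 0.84 ± 0.12 (adjusted p = 0.00269). Its TPM ratio to S100a6 ranged from 0.0736 to 0.117. These ratios are descriptions over 6 libraries.

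**Figure D4:**
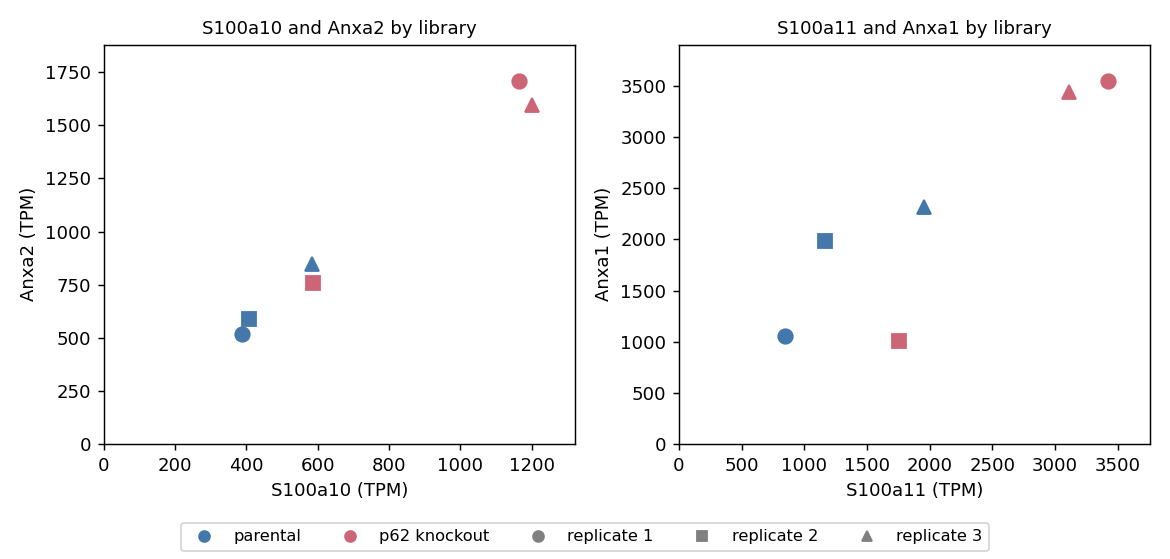
Deposited TPM of S100a10 against Anxa2 (left) and of S100a11 against Anxa1 (right) in each library, both axes linear from 0, with colours for the groups and marker shapes for replicate numbers. Points of the left panel lie near a line through the origin (ratio 1.29 to 1.47), and in the right panel knockout replicate 2 lies lowest relative to S100a11 (ratio 0.573).

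Intracellular partners other than annexins had 1 of 15 lower, 0 higher and 14 not passing by edgeR, with 2 higher and 1 lower at an unadjusted p below 0.05 and 2 higher and 1 lower by DESeq2. The shares of all genes were 3.48% higher and 5.6% lower by edgeR, and 10.2% and 9.89% by DESeq2. Without knockout replicate 2, Cacybp, Plat, Fgf1 and Rad54b were higher and Ahnak, Myh9, Ppfibp1 and Dlc1 lower, which is 4 and 4 of 15, where 23% and 23.2% of all genes were. Dlc1, a GTPase-activating protein bound by S100A10, fell 1.82-fold, with 19.96 ± 3.27 CPM in parental and 10.99 ± 1.32 CPM in knockout cells (edgeR adjusted p = 0.0400). Without any library but knockout replicate 2 the call was lost (adjusted p = 0.0974 to 0.173), with log2 fold changes of -0.99 to -0.77. Myh9, the myosin heavy chain bound by S100A4, had a parental mean of 866 ± 86.0 CPM and knockout values of 655, 909 and 676 CPM for replicates 1 to 3 (edgeR adjusted p = 0.434). Knockout replicate 2 was the only one of the 3 within the parental range, and without it the log2 fold change was -0.40 ± 0.12 (adjusted p = 0.0342). Ahnak, a giant scaffold protein held by the complex of S100A10 and annexin A2, had a parental mean of 1774 ± 105 CPM and knockout values of 923, 3057 and 1114 CPM for replicates 1 to 3. The 3 knockout values lay on both sides of the parental range, with replicate 2 the highest, and without it the log2 fold change was -0.81 ± 0.12 (edgeR adjusted p = 0.00353). The median log2 fold change of the list was 0.05.

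Receptors of extracellular S100 proteins had 0 of 8 tested genes called by edgeR, where 3.48% of all genes were higher and 5.6% lower. At an unadjusted p below 0.05, 1 was higher and 1 lower. DESeq2 and limma-voom called 0, where they called 10.2% and 2.68% of all genes higher and 9.89% and 5.45% lower. Tlr4 had the smallest p, at 16.8 ± 2.03 CPM in parental and 22.5 ± 1.51 CPM in knockout cells (log2 fold change 0.42 ± 0.16; adjusted p = 0.118). Ager, which encodes RAGE, was at 1.24 ± 0.279 and 0.640 ± 0.383 CPM (edgeR adjusted p = 0.211), and without knockout replicate 2 its log2 fold change was -1.55 ± 0.36 (adjusted p = 0.0155). When knockout replicate 2 was left out, 3 receptors were higher and 1 lower, against 23% and 23.2% of all genes.

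Other S100 genes were barely expressed. Of 7 listed, 2 were tested, and 0 were called by edgeR, DESeq2 or limma-voom. Of all genes, edgeR called 3.48% higher and 5.6% lower, DESeq2 10.2% and 9.89%, and limma-voom 2.68% and 5.45%. At an unadjusted p below 0.05, 0 of the other S100 genes were higher and 1 lower. That gene was S100z, at 0.561 ± 0.0947 CPM in parental and 0.168 ± 0.150 CPM in knockout cells (adjusted p = 0.106). S100a7a, psoriasin, was at 1.87 ± 0.612 and 1.72 ± 1.13 CPM (adjusted p = 0.891). Of 7 fused S100 proteins, large cornified-envelope and hair follicle proteins with an S100 domain, 1 was tested and it rose, where 3.48% of all genes were called higher. This was Tchh, trichohyalin, at 6.00, 5.77 and 4.61 CPM in parental and 15.8, 9.41 and 15.2 CPM in knockout replicates 1 to 3 (log2 fold change 1.30 ± 0.25, SE; adjusted p = 0.0323). The groups did not overlap, with knockout above parental, as for 17.2% of all genes. The call was lost when any library but knockout replicate 2 was left out (adjusted p = 0.0659 to 0.153), with log2 fold changes of 1.18 to 1.36.

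Other EF-hand genes outside the family had 2 of 23 higher, 1 lower and 20 not passing, where 3.48% and 5.6% of all genes were called, with a median log2 fold change of 0.24. Actn1, an actin crosslinker, rose 1.68-fold from 284 ± 12.96 to 478 ± 21.5 CPM (adjusted p = 0.0210, edgeR) and Capn2, a calpain protease, 1.58-fold from 184 ± 16.2 to 291 ± 16.9 CPM (adjusted p = 0.0295). Rcn3, a calcium-binding protein of the secretory pathway, fell by 2.65 on the log2 scale, with 0.907 ± 0.0776 CPM in parental and 0.143 ± 0.0429 CPM in knockout cells (adjusted p = 0.0174). Its reads were 33, 38 and 31 in parental and 6, 4 and 5 in knockout replicates 1 to 3. The knockout counts are near the depth limit of 3 reads given above. The calls of Actn1 and Capn2 were lost without any library but knockout replicate 2 (adjusted p = 0.0597 to 0.152 and 0.0729 to 0.171), and that of Rcn3 without any but parental replicate 1 or knockout replicate 2 (0.0730 to 0.115). Leaving out knockout replicate 2 gave 12 of these genes higher and 3 lower, where 23% and 23.2% of all genes were.

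Genes between the members or within 100 kb of them on chromosome 3 were compared as the local background. Around the cluster of 8 members, 6 of 16 neighbours were tested, and 1 was higher, 0 lower and 5 did not pass, with a median log2 fold change of 0.33. Of all genes, 3.48% were called higher and 5.6% lower. The gene called was Ilf2, a double-stranded RNA-binding protein, which rose by a log2 fold change of 1.09 ± 0.23 (SE; edgeR adjusted p = 0.0357), with 51.95 ± 5.65 CPM in parental and 110.4 ± 30.3 CPM in knockout cells. Its call was lost without any library but knockout replicate 2 (adjusted p = 0.0760 to 0.171), with log2 fold changes of 0.97 to 1.13. Without knockout replicate 2, 3 of the 6 neighbours were higher and 0 lower, where 23% of all genes were higher and 23.2% lower. Around S100a11 and S100a10, 1 of 9 neighbours was tested, which was Tchh.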

How the data were processed

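RNA-seq of 3 parental and 3 p62 knockout MOC2 libraries was analysed. Per the file headers, the authors' tables give total and unique exon reads as whole-number counts per gene, exon length and TPM. The deposited TPM equals total exon reads per exon length scaled to a common total (largest difference on recomputation 6.00e-11). Per the submitters' processing notes the genome build was GRCm39. Aligner, annotation and counting strand were not given in the sources used here, so overlapping genes are uncertain.

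Counts were tested with edgeR 4.0.16 (quasi-likelihood, filterByExpr, TMM, group as the only term, Benjamini-Hochberg over 12775 genes) under R 4.3.3. The code was also run on simulated data. These held no outlying library such as knockout replicate 2, so the run does not show how the test performs here. Standard errors came from the F statistic. Tried as alternatives were scaling by RLE or by the upper quartile, an unfiltered table, a filter of 5 CPM in 3 libraries, DESeq2 1.42.0, limma-voom (limma 3.58.1), unique reads, a replicate block and leaving out each library. Depth limits refer to counting error only. The closest libraries of a group, knockout replicates 1 and 3, differed by a chi-square of 7.77 per degree of freedom, above sampling noise, and were kept separate.

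Named were all members, Sqstm1, up to 3 called genes each way (otherwise the smallest p) per list of other S100 genes, fused S100 proteins, annexins, intracellular partners, receptors, other EF-hand genes and cluster neighbours, and the 3 genes most like the extreme members. Myh9, Ahnak, Anxa1, Anxa2, Cacybp, Ager, S100a2, S100a7a, S100a9, Gm42674, the marker genes and the genes listed as called without knockout replicate 2 were added after their values were seen. Members and lists were chosen with earlier results of these data known. Promoter sequences are from RefSeq, build GRCm38.p6, whose tables also gave gene order.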

Additional observations from a re-analysis of the deposited data

How the results depend on the processing

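The count of S100 genes called higher was 1, and it was 4 with DESeq2 (S100a3, S100a4, S100a10 and S100a11, where 10.2% of all genes were called higher), 0 with the filter of 5 CPM in 3 libraries, under which S100a3 was not tested, and 0 with the replicate number as a block. Leaving out a library gave 0 to 6 called higher and 0 to 1 called lower. The count called lower was 1 in each other setting except the replicate block, where it was 0. In that block fit, S100a3 had an adjusted p of 0.0879 and S100a14 of 0.0791, and 54 genes (0.423% of 12775) were called higher and 203 (1.59%) lower, against 445 and 715 without it. Deviations of same-numbered libraries from their group means correlated at -0.366, -0.105 and 0.284, and those of differently numbered ones at -0.332 to 0.391. With 3 libraries per group and knockout replicate 2 apart from the others, these values cannot decide whether the numbers pair the samples. DESeq2 called 1398 genes higher and 1355 lower. Without knockout replicate 2 the counts were 2972 and 3001, and without another library 0 to 125 and 0 to 278, in fits with fewer residual degrees of freedom. Of 346 log2 fold changes over 25 genes and all settings, 2 changed sign, both of S100a1, which was not called: -0.11 without parental replicate 1 and -0.08 without knockout replicate 3, in a range from -0.11 to 0.27 over single libraries left out. The scalings moved the median of all genes by at most 0.04 on the log2 scale. Depth limits S100a8, with 1 to 8 reads per library.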
